A study of Mus musculus with 6 samples.

Results

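The genes described here are *Lcn2*, both subunits of calprotectin (*S100a8* and *S100a9*), the chemokine receptor *Cxcr2*, and 6 genes of neutrophil granules (*Ngp*, *Camp*, *Ltf*, *Retnlg*, *Mpo* and *Elane*). They were chosen by name, as metal-sequestering proteins and neutrophil genes, with earlier results of these data known. They are 10 of the 57180 genes in the count table. All 10 were kept by the filter on low counts, which left 13428 genes to test. RNA was sequenced from wildtype (WT, C57BL/6) and *lincRNA-EPS* knockout (KO) mouse cultures, with 3 libraries per genotype that the series describes as biologically independent. The labels call the cells bone marrow-derived macrophages induced with RANKL, and the study calls them osteoclast precursors (OCPs). In both genotypes nonadherent marrow cells received the macrophage growth factor M-CSF at 40 ng/ml for 24 h, and RANKL, the cytokine that starts osteoclast differentiation, was then added at 40 ng/ml for 48 h, with no LPS. The labels do not say how many mice gave each library, nor in which cells the knockout acts beyond the mouse as a whole.

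Neutrophils make their granule proteins in the marrow in waves. Primary granules, filled first with myeloperoxidase and elastase, are followed by secondary and tertiary granules with lipocalin 2, lactoferrin, cathelicidin and neutrophilic granule protein, and mature cells then express CXCR2 and large amounts of calprotectin in the cytosol. Several of these proteins starve microbes of metals: lipocalin 2 captures the siderophores with which bacteria take up iron, lactoferrin binds iron itself, and calprotectin binds zinc and manganese. Macrophages also make lipocalin 2 and calprotectin when stimulated, so these transcripts are not a property of neutrophils alone.

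The libraries held 17757351 to 19998611 estimated counts. LincRNA-EPS (*Ttc39aos1*) was found with 20, 37 and 41 counts in the WT libraries and with 0 in every KO library, so the labels and the target go together. All pairs of libraries differed by more than sampling noise. The KO libraries differed widely among themselves (chi-square per degree of freedom 39.3, 57.3 and 69.5 for the 3 pairs), against 3.77 to 20.8 within WT. KO replicate 1 was nearer to every WT library (9.34, 34.7 and 8.97) than to either other KO library. KO libraries tended to read GC-rich transcripts less: over 13176 genes (genes are no replicates) r between the log2 fold change and the GC content of the transcript was -0.51. KO replicate 1 minus KO replicate 3, within a single genotype, followed GC content as well (r = 0.603). The differences of the 10 genes and the medians of the gene lists are therefore given without and with a GC correction, in which the trend of each library along GC content was removed. Levels per kb, sums over marker genes and correlations between genes are uncorrected. Mitochondrial transcripts took 1.00% to 1.53% of the counts in WT and 1.78% to 3.32% in KO.

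Promoter sequences are shown for the genes whose difference between genotypes had opposite signs, so that their surroundings can be compared. The bases before the RefSeq transcription start were read for all 10 genes in GRCm38.p6, and 2 words known from myeloid promoters were marked: TTGCNNAA, a core of C/EBP factor sites, and GAGGAAGT, a core of sites of PU.1 and other ETS factors, both searched on either strand from 250 bases before to 50 bases after the start. They were picked from 15 spellings that were tried with these genes and their values in view. The 250 bases before the start of *Lcn2* (chr2:32387740-32387989, minus strand) and of *Mpo* (chr11:87793534-87793783, plus strand) follow, 5′ to 3′ along the gene, with the marked word in capitals.
*Lcn2*: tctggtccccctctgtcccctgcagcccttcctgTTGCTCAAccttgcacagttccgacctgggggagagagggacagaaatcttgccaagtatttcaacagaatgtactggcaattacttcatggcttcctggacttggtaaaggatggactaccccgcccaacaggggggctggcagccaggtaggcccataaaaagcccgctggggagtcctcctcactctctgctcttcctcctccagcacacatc
*Mpo*: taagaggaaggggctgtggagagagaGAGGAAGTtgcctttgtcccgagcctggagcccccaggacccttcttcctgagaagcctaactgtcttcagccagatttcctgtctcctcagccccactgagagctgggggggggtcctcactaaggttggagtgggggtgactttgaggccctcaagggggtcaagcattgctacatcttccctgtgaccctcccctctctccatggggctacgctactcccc

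TTGCNNAA was present in the windows of *Lcn2*, *S100a9*, *Ngp*, *Ltf* and *Retnlg*, and in 10.8% of all 32851 promoter windows. GAGGAAGT was present in *S100a8*, *Mpo* and *Elane*, and in 3.2% of all windows. *Cxcr2* and *Camp* held neither word. The matches are shown with up to 10 bases on each side and the word, or its reverse complement, in capitals. Their first marked base lies 236 bases before the start in *S100a9*, 138 and 11 in *Ngp*, 75 in *Ltf*, 246 in *Retnlg*, 172 in *S100a8* and 85 in *Elane*, and in the sequences above 216 in *Lcn2* and 224 in *Mpo*. A match of letters is a description and was not tested as a binding site.
*S100a9*: gtaggctgtcTTGCTTAAgatttgggcg
*Ngp*, farther site: tcctggtttaTTGCCCAAacctccttgc
*Ngp*, nearer site: ccggcagttcTTGGGCAAggcagtctca
*Ltf*: ggcaggcctaTTGGGCAAtagggtgggg
*Retnlg*: agctTTCTGCAAggcattccag
*S100a8*: caacactcccACTTCCTCagactcagaa
*Elane*: gtgtcccaggGAGGAAGTagggctgtgg

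*Lcn2* (ENSMUSG00000026822, chromosome 2 from 32384633 to 32388252 in GRCm38, minus strand) encodes lipocalin 2. It had 84.8, 83.1 and 78.1 normalized counts (CPM, counts scaled to a common library size after TMM) in WT replicates 1, 2 and 3, and 119.8, 119 and 103 in KO replicates 1, 2 and 3. All KO libraries were above all WT libraries, and the spread within a genotype was small beside the distance between them. The means were 82.0 ± 3.46 for WT and 114 ± 9.66 for KO (mean ± SD of 3 libraries), a 1.39-fold difference. On the log2 scale the difference was 0.47 with a standard error of 0.10. The quasi-likelihood test of edgeR gave adjusted p = 0.145, so *Lcn2* did not pass the limits of an adjusted p under 0.01 and a fold above 1.3. It passed them in DESeq2's Wald test (adjusted p = 0.00416). The GC correction brought the difference to 0.63 with a standard error of 0.07 (edgeR, adjusted p = 0.0121), and KO replicate 3, the lowest KO library without the correction, was then level with the others (119, 120.2 and 121 in KO replicates 1, 2 and 3, beside 83.0, 74.1 and 75.9 in WT). The value stayed between 0.43 and 0.54 when any 1 library was left out. In edgeR's order by p-value *Lcn2* was number 94 of the genes tested.

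The study measured *Lcn2* by qRT-PCR with its own primers, whose place on the transcript shows which part of the gene was read there. Both primers match 4 of the 6 *Lcn2* transcripts of GENCODE M21. In ENSMUST00000050785, of 915 bases and 6 exons, the forward primer lies at bases 478 to 497 in exon 4 and the reverse primer at bases 556 to 577 across the junction of exons 4 and 5, with a product of 100 bases. The sequencing counts cover the gene as a whole.
Forward primer: ccaccacggactacaaccag
Reverse primer: agctccttggttcttccataca

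*S100a8* and *S100a9* encode the calcium-binding proteins that pair as calprotectin. The genes are neighbours on chromosome 3 of GRCm38, with *S100a8* (ENSMUSG00000056054) from 90668978 to 90670035 on the plus strand and *S100a9* (ENSMUSG00000056071) from 90692632 to 90695721 on the minus strand. No tested gene lies in the 22.6 kb between them. *S100a8* had 214, 133 and 186 normalized counts in WT replicates 1, 2 and 3, and 263, 328 and 436 in KO replicates 1, 2 and 3. *S100a9* had 416, 289.8 and 367 in the WT replicates and 552, 629 and 684 in the KO replicates. For both, WT replicate 2 was the lowest and KO replicate 3 the highest library, and the genotypes did not overlap. *S100a8* averaged 178 ± 40.9 in WT and 342 ± 87.6 in KO, a difference of 0.94 on the log2 scale with a standard error of 0.21 (edgeR, adjusted p = 0.147). *S100a9* averaged 358 ± 63.6 in WT and 622 ± 66.2 in KO, a difference of 0.80 with a standard error of 0.14 (edgeR, adjusted p = 0.136). Both passed the limits in DESeq2's test, with adjusted p = 0.00163 for *S100a8* and 0.000127 for *S100a9*. The GC correction lowered the differences to 0.78 for *S100a8* (edgeR, adjusted p = 0.0536) and 0.67 for *S100a9* (adjusted p = 0.0346).

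*Cxcr2* (ENSMUSG00000026180, chromosome 1 from 74153989 to 74161246, plus strand) encodes the receptor through which neutrophils follow CXC chemokines out of the marrow. Its normalized counts were 7.17, 6.40 and 4.57 in WT replicates 1, 2 and 3 and 11.9, 13.6 and 15.0 in KO replicates 1, 2 and 3. The highest WT library was well below the lowest KO library. The means were 6.05 ± 1.34 for WT and 13.5 ± 1.52 for KO. The difference on the log2 scale was 1.16 with a standard error of 0.18 (edgeR, adjusted p = 0.120), number 16 by p-value. DESeq2 gave an adjusted p = 7.99e-05, and the GC-corrected difference was 1.03 (edgeR, adjusted p = 0.0365). Its estimated counts, 87.29 to 293.81 in a library, were not whole in 5 of 6 libraries.

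*Ngp*, *Camp*, *Ltf* and *Retnlg* stand for the later granules. *Ngp* (ENSMUSG00000032484) encodes neutrophilic granule protein, *Camp* (ENSMUSG00000038357) the antimicrobial peptide cathelicidin, *Ltf* (ENSMUSG00000032496) lactoferrin, and *Retnlg* (ENSMUSG00000022651) a resistin-like secreted protein. *Ngp* had 337, 324 and 304 normalized counts in the WT replicates and 394, 444 and 518 in the KO replicates, without overlap. *Ltf* had 156, 169 and 145 in WT and 194, 194 and 177 in KO, also without overlap. *Camp* had 36.8, 34.0 and 33.2 in WT and 48.7, 50.7 and 32.3 in KO. The genotypes overlapped for *Camp*, since KO replicate 3 was the lowest library of all while the other KO libraries were above WT. *Retnlg* had 2.66, 1.04 and 1.94 in WT and 5.21, 5.0 and 6.57 in KO, from 19 to 53 counts per WT library and 87 to 129 per KO library.

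On the log2 scale *Ngp* differed by 0.49 with a standard error of 0.12 (edgeR, adjusted p = 0.147), and *Camp* by 0.34 with 0.17 (adjusted p = 0.220). *Ltf* differed by 0.27 with a standard error of 0.10 (adjusted p = 0.156), and *Retnlg* by 1.56 with 0.29 (adjusted p = 0.136 from edgeR). All 4 values were above 0 and none passed the limits in edgeR. In DESeq2's test *Ngp* (adjusted p = 0.00952) and *Retnlg* (adjusted p = 0.00140) passed, and *Camp* (adjusted p = 0.194) and *Ltf* (adjusted p = 0.0872) did not. With the GC correction the genotypes no longer overlapped for *Camp*, at 30.5 to 36.0 in WT and 37.8 to 51.3 in KO, and its difference was then 0.48 (edgeR, adjusted p = 0.0732). The corrected differences were 0.52 for *Ngp* (edgeR, adjusted p = 0.0593), 0.32 for *Ltf* (0.0602) and 1.48 for *Retnlg* (0.0449). Uncorrected, *Camp* differed by 0.52 without KO replicate 3, by 0.22 without KO replicate 2 and by 0.26 without KO replicate 1. *Retnlg* had the largest log2 fold change of the 10 genes and the largest standard error among them.

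*Camp*, *Ngp* and *Ltf* lie on the same stretch of chromosome 9 in GRCm38, *Camp* from 109847379 to 109849617 on the minus strand, *Ngp* from 110419747 to 110423012 and *Ltf* from 111019271 to 111042767, both on the plus strand. Between *Camp* and *Ltf*, a distance of 1169.7 kb, lie 17 other tested genes. Their median log2 fold change was -0.29, with 6 above and 11 below 0, beside 49.0% of all genes below 0, and a range of -0.83 to 0.36. After the GC correction the median was -0.15, with 3 above and 14 below 0. *Retnlg* lies on chromosome 16 from 48872621 to 48874496.

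*Mpo* and *Elane* encode myeloperoxidase and neutrophil elastase, the enzymes of the primary granules. *Mpo* (ENSMUSG00000009350, chromosome 11 from 87793581 to 87804413) had 183, 235 and 160 normalized counts in WT replicates 1, 2 and 3 and 156, 158 and 119 in KO replicates 1, 2 and 3. *Elane* (ENSMUSG00000020125, chromosome 10 from 79886247 to 79888215) had 62.7, 62.4 and 57.3 in WT and 56.1, 53.7 and 35.5 in KO. All KO libraries were below all WT libraries for both genes, narrowly so except for KO replicate 3. *Mpo* averaged 193 ± 38.6 in WT and 144 ± 21.8 in KO, a difference of -0.42 on the log2 scale with a standard error of 0.16 (edgeR, adjusted p = 0.163). *Elane* averaged 60.8 ± 3.07 in WT and 48.4 ± 11.2 in KO, a difference of -0.33 with a standard error of 0.16 (edgeR, adjusted p = 0.228). With the GC correction the values were -0.19 for *Mpo* (adjusted p = 0.230) and -0.09 for *Elane* (adjusted p = 0.561), and the genotypes overlapped for both. Without KO replicate 3 and without the correction they were -0.30 and -0.15, and *Mpo* was at -0.25 without WT replicate 2, its highest library. *Mpo* shares 512 exonic bases with *Gm11505* on the opposite strand, which had 1 to 4.01 counts per library.

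**Figure D1:**
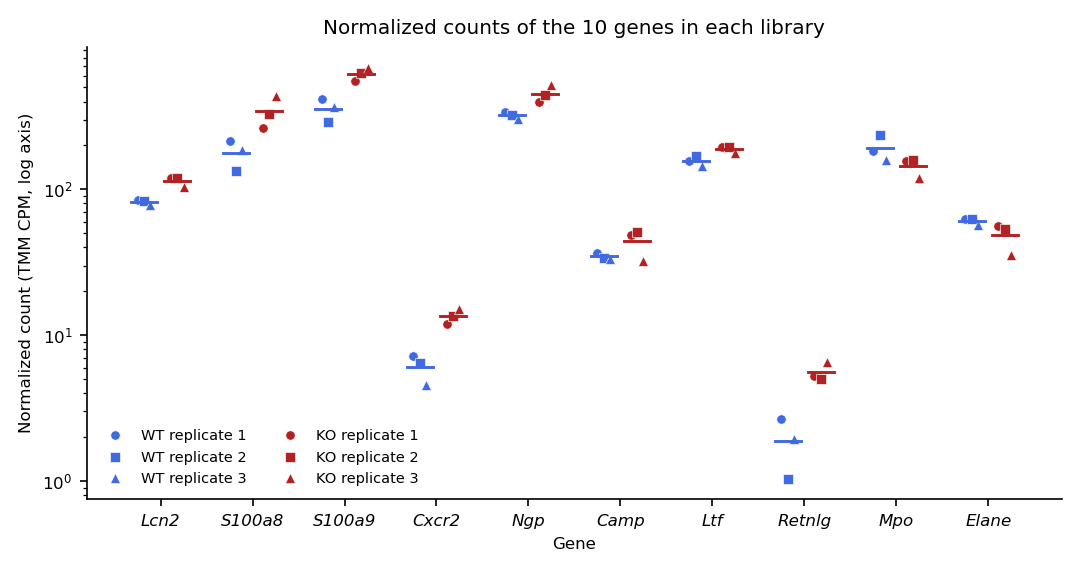
Normalized counts (TMM CPM, log axis) of the 10 genes in each of the 6 libraries, with WT in blue, KO in red, a symbol per replicate and a line at each mean. The KO symbols lie above the WT symbols for 7 genes, overlap them for Camp, and lie below them for Mpo and Elane.

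Set against all genes tested, 0 of the 10 genes passed the limits in edgeR's test, which called 0% of the genes higher and 0.00745% lower in KO. DESeq2 called 6 of the 10 higher (*Lcn2*, *S100a8*, *S100a9*, *Cxcr2*, *Ngp* and *Retnlg*), beside 0.489% of the genes it tested, and 0 lower, beside 0.628%. *Lcn2* is among the genes the study singled out from these same libraries. All 10 genes were chosen with earlier results of these data known, so their calls and shares here are not independent evidence of a direction. At an unadjusted p under 0.05 in edgeR's test, 8 of the 10 differed in either direction (7 higher and *Mpo* lower), beside 26.2% of all genes. The KO libraries were all above the WT libraries for 7 of the 10 genes, beside 16.9% of all genes, and all below for 2, beside 18.8%. Without KO replicate 3 all 10 were apart, 8 above and 2 below, beside 43.0% of all genes in either direction. By sign alone 8 of the 10 were above 0, beside 51.0% of all genes, and 2 below, beside 49.0%. The median log2 fold change was 0.48 over the 10 genes and 0.01 over all genes.

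The GC correction moved the genes in both directions. The more GC-rich transcripts, from *Ngp* (50.2%) and *Ltf* (51.0%) through *Camp* (54.2%) and *Lcn2* (54.4%) to *Mpo* (56.4%) and *Elane* (57.4%), were shifted upward by it, and the GC-poor *S100a8* (44.2%), *S100a9* (45.1%), *Cxcr2* (45.6%) and *Retnlg* (46.7%) were shifted downward. After the correction 8 of the 10 genes had all KO libraries above all WT libraries, beside 14.7% of all genes, and 0 had them below, beside 17.5%. At the limits edgeR then called 0 of the 10, beside 0.00745% of all genes higher and 0.0149% lower. At an adjusted p under 0.05 with a fold above 1.3, it called *Lcn2*, *S100a9*, *Cxcr2* and *Retnlg* higher, beside 0.432% of all genes, and none of the 10 lower, beside 0.447%. DESeq2 with the correction called 7 of the 10 higher at the stricter limits, *Camp* being added, beside 1.68% of the genes it tested, and 0 lower, beside 1.53%. The log2 fold changes of the 8 genes were thus above 0 on both scales, while *Mpo* and *Elane* were separated from WT only without the correction. Whether the genotype itself shifts transcripts along GC content cannot be told apart from a difference between libraries.

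**Figure D2:**
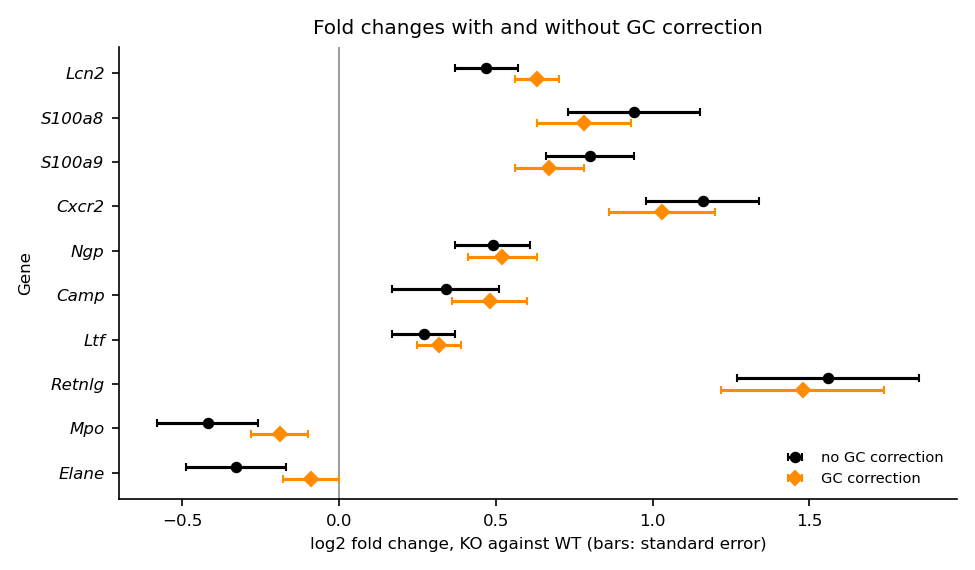
The log2 fold change of KO against WT for each of the 10 genes (x axis) from edgeR without the GC correction (black circles) and with it (orange diamonds), with bars of 1 standard error. Lcn2 moves from 0.47 to 0.63 and S100a8 from 0.94 to 0.78, while Mpo moves from -0.42 to -0.19 and Elane from -0.33 to -0.09.

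Ratios of 2 genes within a library do not depend on how libraries are scaled to each other, and 5 were compared. *S100a8* to *S100a9* was 0.515, 0.461 and 0.506 in WT replicates 1, 2 and 3 and 0.476, 0.521 and 0.638 in KO replicates 1, 2 and 3. The genotypes overlapped, and the mean ratio in KO was 1.10 times that in WT (p = 0.4, exact two-sided permutation test, adjusted p = 0.667 over the 5 ratios). *Elane* to *Mpo* (1.03 times, exact p = 0.8) and *Camp* to *Ngp* (0.929 times, exact p = 1.00) overlapped as well.

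*Ngp* to *Mpo*, a later to a primary granule gene, separated the genotypes. Without the correction this was fixed in advance, as *Ngp* was higher and *Mpo* lower in all KO than in all WT libraries. The exact p without the correction then had to be the smallest possible. *Ngp* to *Mpo* was 1.84, 1.38 and 1.91 in WT and 2.53, 2.81 and 4.35 in KO, 1.89 times higher on average. KO replicate 3 stood above all other libraries. With the GC correction the libraries within a genotype came closer together, at 1.58 to 1.97 in WT and 2.55 to 3.56 in KO, and the ratio in KO was 1.63 times that in WT. *Lcn2* to *Ltf*, both genes of secondary granules, was 0.492 to 0.543 in WT and 0.578 to 0.618 in KO, 1.15 times higher and 1.23 times with the correction. For both ratios the exact p was 0.1, the smallest that 3 libraries against 3 allow, and the adjusted p was 0.250.

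**Figure D3:**
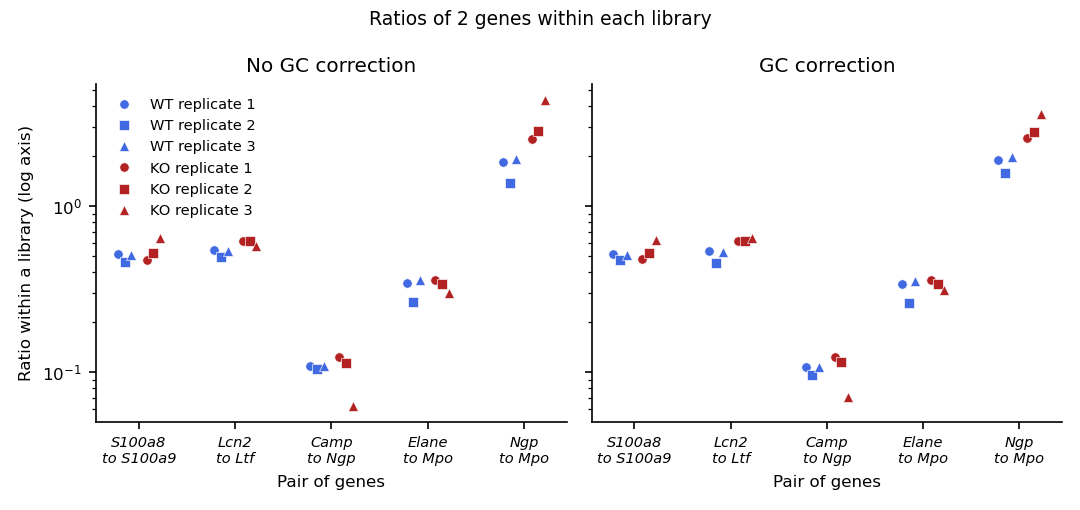
Ratios of the normalized counts of 2 genes within each library (log axis) without (left) and with the GC correction (right), WT in blue and KO in red. Only Ngp to Mpo and Lcn2 to Ltf have all KO libraries above all WT libraries on both sides.

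Compared per kb of the longest transcript, levels spanned more than 2 orders of magnitude. In WT the order was *S100a9* (689 ± 123 CPM per kb), *S100a8* (357 ± 82.1), *Ngp* (263 ± 13.3), *Mpo* (70.1 ± 14), *Elane* (61.8 ± 3.12), *Lcn2* (59.7 ± 2.52), *Ltf* (57.1 ± 4.42), *Camp* (45.7 ± 2.51), *Retnlg* (3.17 ± 1.37) and *Cxcr2* (1.99 ± 0.439; SD, n = 3). WT ranges overlapped for *S100a8* and *Ngp*, for *Mpo*, *Elane*, *Lcn2* and *Ltf* from each to the next, and for *Retnlg* and *Cxcr2*. Overlapping ranges do not show that 2 genes were level, since both were read in the same libraries and were not compared within each library. In KO *Lcn2* was number 4 with 82.7 ± 7.03 CPM per kb, apart from both neighbours, followed by *Ltf* (68.7 ± 3.48), *Camp* (57.9 ± 13.3), *Mpo* (52.4 ± 7.94) and *Elane* (49.2 ± 11.4), each overlapping the next. *S100a9* (1198 ± 128), *S100a8* (687 ± 176) and *Ngp* (369.7 ± 51.1) stayed at the top. The order in the middle depends on the length used. With the mean length of all transcripts of a gene, *Ltf* came to 230.1 and *Mpo* to 148 CPM per kb in WT. In KO *Lcn2* was then number 5, and its libraries (111 to 129) overlapped those of *Mpo* (91.6 to 121).

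The wider neutrophil program was read from 3 lists of genes, whose members include the 10 genes. Of 17 tested genes of the mature neutrophil surface and cytosol, 16 had a log2 fold change above 0, with a median of 0.54 (0.43 with the GC correction), beside 0.01 for all genes. None passed the limits in edgeR, and 9 were higher and 0 lower at an unadjusted p under 0.05, a limit that 26.2% of all genes passed in either direction. DESeq2 called 4 higher, *Cxcr2*, *S100a8* and *S100a9* among them, beside 0.489% of all genes it tested, and gave no adjusted p for *Il1r2*, *G0s2* and *Asprv1*. With the correction it called 4 higher as well, beside 1.68% of all genes it then tested. *Il1r2*, the decoy receptor for interleukin 1, averaged 1.82 ± 0.0993 normalized counts in WT and 3.68 ± 0.359 in KO (log2 fold change 1.02, adjusted p = 0.136 from edgeR, and 1.01 with the correction). *Asprv1*, a protease gene, had 0.642 ± 0.183 and 1.66 ± 0.438, from 10 to 40 counts per library. Neither gene overlapped between genotypes, beside 16.9% of all genes with all KO libraries above all WT libraries. *Stfa2l1*, a stefin gene too low to be tested, had 4, 4 and 3 counts in the WT replicates and 7, 8 and 13 in the KO replicates. The receptor for the growth factor G-CSF, *Csf3r*, had 29.1 ± 5.22 and 32.3 ± 2.95, and its genotypes overlapped (log2 fold change 0.15). With the correction its value was 0.30 and they did not overlap. *Ly6g*, the gene of the antigen by which mouse neutrophils are sorted, had 0 to 0.251 normalized counts in any library and was not tested.

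Of 17 secondary and tertiary granule genes, 13 had a log2 fold change above 0, with a median of 0.14 (0.31 with the GC correction). None passed in edgeR, and 5 were higher and 2 lower at an unadjusted p under 0.05, beside 26.2% of all genes in either direction. The lower genes were *Cybb*, a subunit of the NADPH oxidase, at -0.22 (-0.43 with the correction) and the properdin gene *Cfp* at -0.29 (-0.06 with it), both named after their values were seen. DESeq2 called *Lcn2*, *Ngp* and *Retnlg* higher, beside 0.489% of all genes it tested, and none lower, beside 0.628%. With the GC correction it called 5 higher, *Camp* and the gelatinase gene *Mmp9* (log2 fold change 0.46, adjusted p = 9.91e-07) being added, beside 1.68% of all genes, and *Cybb* lower (adjusted p = 3.3e-05), beside 1.53%. *Mmp9* was at 0.28 without the correction, with overlapping genotypes (edgeR, adjusted p = 0.207, and DESeq2, adjusted p = 0.133). It was named after its value was seen. *Chil3*, a chitinase-like protein, had 196 ± 7.89 in WT and 267 ± 30.8 in KO (log2 fold change 0.44, adjusted p = 0.147 from edgeR, and 0.31 with the correction). The list held genes near 0 as well, such as the collagenase gene *Mmp8* at 0.01 (-0.17 with the correction, and then without overlap), chosen after its value was seen. The primary granule list, with 6 tested genes, had a median of -0.21 (-0.05 with the GC correction) with 2 genes above and 4 below 0 (1 and 5 with the correction), and no call in either test, though DESeq2 gave no adjusted p for *Bpi*. The genes above 0 were *Bpi*, which encodes a protein that binds bacterial endotoxin, at 0.60 (0.74 with the correction, when its genotypes did not overlap) and *Ms4a3* at 0.27 (-0.02 with it). Both were named after their values were seen. The proteinase 3 gene *Prtn3* had 43.1 ± 4.29 in WT and 31.3 ± 7.92 in KO (log2 fold change -0.46, adjusted p = 0.167 from edgeR, and -0.08 with the correction). Cathepsin G, encoded by *Ctsg*, had 27.8 ± 1.15 and 26.3 ± 3.97, with overlapping genotypes.

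Among 9 transcription factors and receptors of granulopoiesis, 7 had a log2 fold change below 0, beside 49.0% of all genes. The median was -0.23 (-0.09 with the GC correction). DESeq2 called *Cebpa* lower (adjusted p = 0.000706), beside 0.628% of all genes it tested, and edgeR called none. With the GC correction DESeq2 no longer called *Cebpa* (adjusted p = 0.0206), and called *Cebpd* lower (adjusted p = 0.000883), beside 1.53%. *Cebpa*, the factor that starts the granulocyte and monocyte lineage, had 72.0, 90.8 and 76.8 normalized counts in the WT replicates and 50.0, 50.9 and 35.0 in the KO replicates (log2 fold change -0.82, and -0.32 with the correction). *Cebpd* had a log2 fold change of -0.86 (-0.80 with the correction) and *Cebpb* one of -1.45. *Cebpb* was spread widely in KO, with 70.9, 61.8 and 8.55 normalized counts against 111, 155 and 121 in WT, and its value was -0.96 without KO replicate 3 and -0.94 with the correction. *Cebpe*, needed for secondary granules, had 6.11 ± 0.748 and 5.50 ± 0.836, a log2 fold change of -0.15 that became 0.28 with the correction, and the genotypes overlapped on both scales.

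Genes around *Lcn2*, the regulators and receptors of lipocalin 2, pointed in both directions: of 17 tested, 5 were above and 12 below 0, with a median of -0.19 (-0.09 with the GC correction). At an unadjusted p under 0.05, 3 were higher (*Bdh2*, *Il1b* and *Il1r1*) and 7 lower, among them the NF-kB subunit genes *Nfkb1* (-0.28, and -0.41 with the correction), *Rela* (-0.44 and -0.09) and *Nfkb2* (-0.43 and -0.10). Of all genes 26.2% passed this limit in either direction. *Il1r1* and the NF-kB genes were named after their values were seen. Without the correction *Bdh2*, an enzyme described in the making of the mammalian siderophore, was the only one called by DESeq2 (adjusted p = 0.00574). DESeq2 called 0.489% of all genes it tested higher, and gave no adjusted p for *Il1r1*. With the GC correction DESeq2 called 3 genes of the list, *Bdh2* and *Mmp9* higher, beside 1.68% of all genes, and *Cebpd* lower, beside 1.53%. *Bdh2* had 3.26, 3.23 and 2.94 normalized counts in WT and 6.56, 5.12 and 8.76 in KO, a log2 fold change of 1.12 (1.07 with the correction). *Il1b*, the cytokine interleukin 1 beta and an inducer of *Lcn2*, had 5.24 ± 0.106 and 8.75 ± 1.42 (log2 fold change 0.74, adjusted p = 0.147 from edgeR, and 0.64 with the correction). *Slc22a17*, a receptor for lipocalin 2, was at 0.1 to 0.509 normalized counts, near or below a floor of 3 counts in several libraries, and was not tested.

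For calprotectin, 14 genes of the S100 family and its receptors had a median log2 fold change of 0.29 (0.28 with the GC correction), 10 above and 4 below 0, with no call in edgeR or, uncorrected, in DESeq2, which gave no adjusted p for *Ager*. With the correction DESeq2 called *S100a10* higher (adjusted p = 0.00284), beside 1.68% of all genes it then tested. *S100a10*, a partner of annexin A2, had 266 ± 42.7 in WT and 369 ± 44.5 in KO (log2 fold change 0.47, adjusted p = 0.147 from edgeR, and 0.54 with the correction). *Tlr4*, a receptor for calprotectin and LPS, had 47.8 ± 4.74 and 46.1 ± 7.48, with overlapping genotypes (log2 fold change -0.05). With the correction its value was -0.35, at 51.7 to 53.5 in WT and 39.0 to 43.5 in KO (edgeR, adjusted p = 0.0556). The 8 tested genes of CXCR2 ligands and signalling had a median of -0.23 (-0.01 with the correction) and no call without the correction, with no adjusted p for *Cxcl5* in DESeq2. With it DESeq2 called *Pik3cg* lower (adjusted p = 0.000857), beside 1.53% of all genes it then tested. The ligand *Cxcl2* had 2.91 ± 0.190 and 4.59 ± 0.693 (log2 fold change 0.66, adjusted p = 0.147 from edgeR, and 0.52 with the correction), while *Cxcl1* (0.0547 to 0.312) and *Cxcl3* (0.351 to 0.677) were too low to be tested. *Pik3cg*, a kinase downstream of the receptor, had 118 ± 5.30 and 93.5 ± 5.73 (log2 fold change -0.33, adjusted p = 0.147 from edgeR, and -0.44 with the correction).

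**Figure D4:**
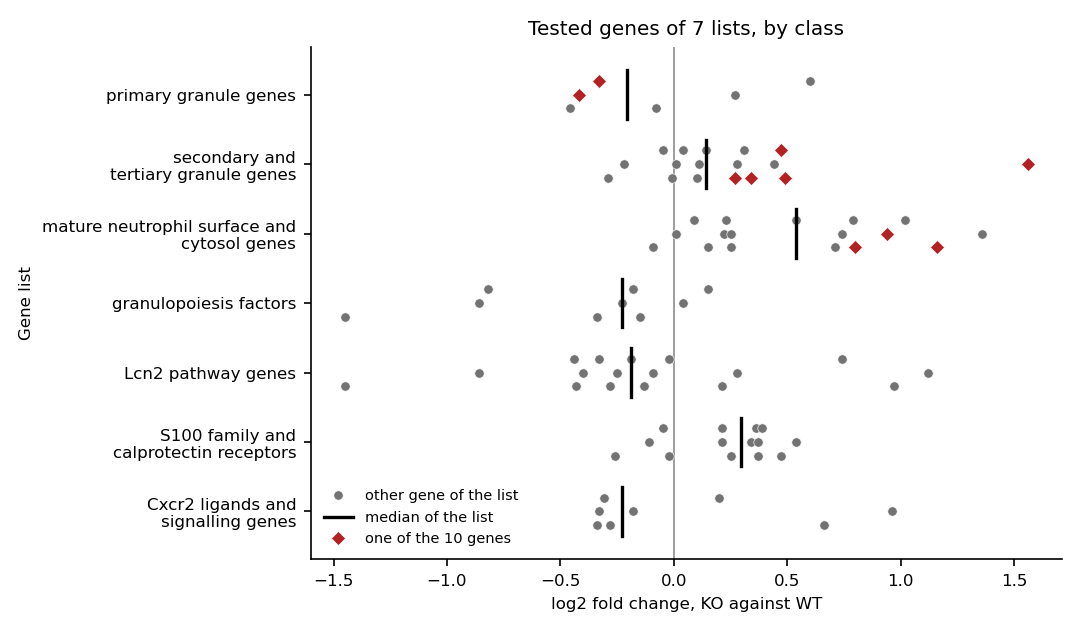
The log2 fold change of KO against WT (x axis) of each tested gene in 7 lists, with the 10 genes as red diamonds, other genes as grey points and the median of each list as a black line. A gene in 2 lists is drawn in both, and the medians lie at -0.21 for primary granule genes, 0.14 for secondary and tertiary granule genes and 0.54 for mature neutrophil genes.

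Markers of the cells in the culture were read beside these values. The 8 macrophage markers were all expressed, with a summed level of 16503 to 17646 normalized counts in WT and 14854 to 17623 in KO, and the 10 osteoclast precursor markers summed to 5249 to 5675 in WT and 6999 to 7415 in KO. Of the macrophage markers 7 had a log2 fold change below 0 on both scales (median of all 8 -0.28, and -0.31 with the GC correction), and *Cd68* was near 0 without the correction and at 0.12 with it. *Mertk* and *Fcgr1* were among those that DESeq2 called lower on both scales, beside 0.628% of all genes it tested and 1.53% with the correction. Of the osteoclast precursor markers 8 were above 0 (median 0.33, and 0.52 with the correction). DESeq2 called *Ctsk*, *Dcstamp*, *Oscar* and *Atp6v0d2* higher, beside 0.489% of all genes it tested. With the correction it called *Acp5* and *Mmp9* as well, beside 1.68%. Of 12 neutrophil markers 11 are in the table and 7 were tested. All 7 were above 0 without the correction (median 0.22) and 6 with it (median 0.29), when *Mmp8* turned to -0.17. On either scale there was no call in edgeR, and none in DESeq2, which gave no adjusted p for *Il1r2* and *Asprv1*. The neutrophil sum was 169.5 to 182 in WT and 177 to 193 in KO, which overlapped, and *Mmp8* made up most of it. Of the untested neutrophil genes, *Ly6g*, *Stfa2* and *Stfa3* were at 0 in at least 1 library of each genotype. *Stfa2l1* was found in every library, at 3 to 4 counts in WT, near the floor, and 7 to 13 in KO. *Il1r2* and *Asprv1* of this list were also higher in KO without overlap, as given above. Markers of granulocyte progenitors summed to 115 to 129.9 in WT and 99.5 to 119.9 in KO, and those of monocytes to 391 to 436 in WT and 474 to 565 in KO, without overlap. *Chil3*, also counted above as a granule gene, made up most of the difference in the monocyte sum. The median log2 fold change of the 5 monocyte markers was 0.35, and 0.19 with the correction, where *Ccr2* went from 0.35 to 0.04, while *F13a1* was at -0.09 and -0.20. In bulk RNA, more or fewer cells of a type and more or less RNA per cell cannot be told apart, and the part of any cell type in the values of the 10 genes was not tested.

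**Figure D5:**
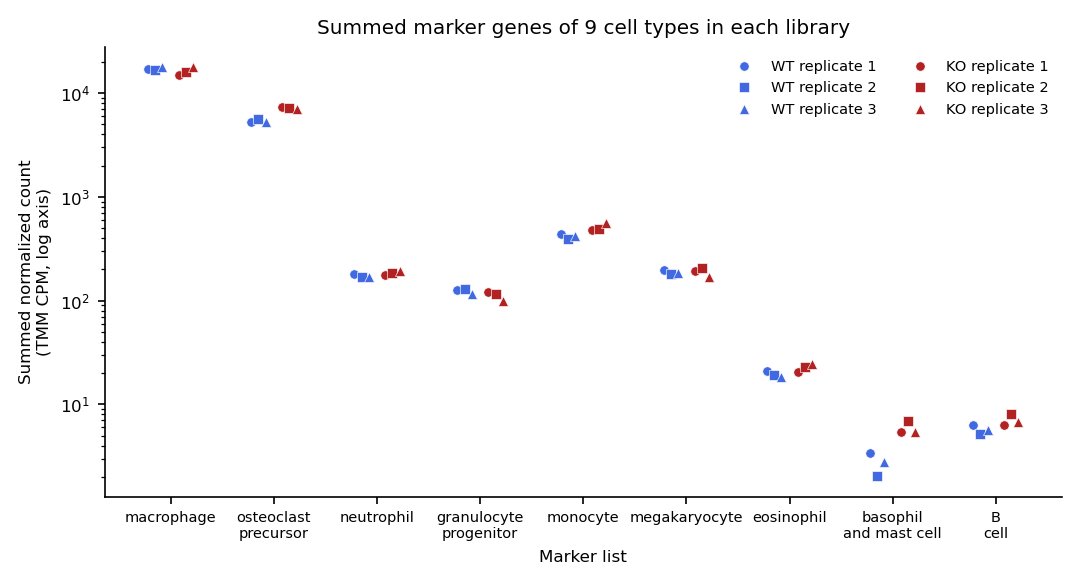
Summed normalized counts (TMM CPM, log axis) of the marker genes of 9 cell types in each library, WT in blue and KO in red. The neutrophil sums overlap between genotypes (169.5 to 182 in WT, 177 to 193 in KO), and the monocyte and osteoclast precursor sums do not.

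Across the 6 libraries, which fall into 2 genotypes, the 10 genes followed each other to different degrees. The values are a description of shared libraries, computed without the GC correction, so they also hold the trend of each library along GC content. The correction moved KO replicate 3 from 119 to 150.5 for *Mpo* and from 32.3 to 37.8 for *Camp*. Correlations with the correction were not computed. The log2 levels of *S100a9* went with those of *Retnlg* (r = 0.989) and *S100a8* (r = 0.980), and those of *Lcn2* most closely with *Ltf* (r = 0.942). *Mpo* went with *Elane* (r = 0.847) and against *S100a8* (r = -0.907). *Camp* followed *Ngp* weakly (r = 0.265). Of all genes tested, those most like *Lcn2* were *Tcp11l2* (r = 0.997), *3300005D01Rik* (0.989), a gene without a symbol (ENSMUSG00000095041, 0.988), *Ddb2* (0.979) and *Ddt* (0.978), and 34 genes had r above 0.95. Those most like *S100a9* were *Rxylt1* (0.997), *Mir142hg*, *9330162G02Rik*, *Idh3a* and *Ociad2* (0.993 each), and 333 genes had r above 0.95. None of these nearest genes is one of the 10.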

How the data were processed

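RNA from 6 mouse cultures was sequenced with Illumina Stranded mRNA libraries on a NovaSeq X Plus. The authors deposited estimated counts per gene, not normalized, of which 25.14% to 26.59% of the detected values in a library were not whole. Per the labels, fastp, HISAT2, StringTie, RSEM and the build GRCm39 were named, without versions or roles. Positions, lengths and GC content come from GENCODE M21 (GRCm38), promoters from RefSeq, and nothing was converted between builds. The batch label differs for every library, so no batch could be fitted.

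Estimated counts were rounded. In R 4.3.3, edgeR 4.0.16 was used with filterByExpr, TMM and the quasi-likelihood test (legacy = FALSE), without covariates, on all 6 libraries and 13428 genes, with Benjamini-Hochberg adjustment. The limits were an adjusted p under 0.01 and a fold above 1.3, 0.379 on the log2 scale. A standard error is the log2 fold change divided by the square root of F. DESeq2 1.42.0 and limma 3.58.1 (voom) were alternatives. The GC correction enters as offsets a natural spline with 5 degrees of freedom for each library, and corrected library values are CPM divided by the same trend. A floor of 3 counts equals 0.150 to 0.173 CPM and covers counting error only. Correlations use log2(CPM + 1) without the GC correction.

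The 10 genes, the 7 pathway lists and the 14 marker lists were chosen with earlier results of these data known. Named were the 10 genes, per list the genes past the limits or else up to 3 with the smallest p, a set of related genes and the nearest genes by correlation, and genes outside this are marked. *Cd68*, *Ccr2*, *F13a1* and the macrophage and osteoclast precursor markers called by DESeq2 were named after their values were seen. Some genes of the lists are not reported here by name. The list symbol BC100530 is not in the table. The authors' group means and their term columns were not used. The fits were tested on simulated counts with known changes.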

Additional observations from a re-analysis of the deposited data

How the results depend on the processing

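Under 18 alternatives the log2 fold changes of the 10 genes gave 180 values, of which 0 changed sign and 13 passed the limits, all with DESeq2's test, with or without the GC correction. Of the 10 genes, 6 passed the limits with DESeq2, 7 with DESeq2 and the GC correction and 8 at an unadjusted p under 0.05, against 0 in the other alternatives, also with any 1 library left out. Over all genes, 121 passed with DESeq2, 339 with DESeq2 and the GC correction, 3 with edgeR and the GC correction, 3515 at an unadjusted p under 0.05, and 0 to 2 with 1 library left out. In the lists DESeq2 called 3 secondary and tertiary granule genes, 4 mature neutrophil genes, 1 granulopoiesis factor and 1 gene of the *Lcn2* pathway, against 0. After the GC correction it called 6, 4, 1 and 3 of these, and 1 gene each of the S100 and CXCR2 lists. The GC correction of the ratios, which turned none of the 5, was chosen after seeing the data, as were the list counts with DESeq2 and the correction, the corrected values of the genes between *Camp* and *Ltf*, and the count of genes without overlap when KO replicate 3 is left out. Replicate numbers did not pair the libraries: the deviations of same-numbered libraries had r = -0.329, 0.136 and 0.266, and not every library went best with its own number. With the replicate number as a block, 0 of the 10 genes and 1 gene in all passed the limits. The cause of the differences between tests was not tested. With 3 libraries per genotype an exact test of 1 gene cannot give p below 0.1, and *Retnlg* and *Cxcr2* rest on the fewest counts.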

Other observations

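Markers of cell types not described above were read as summed normalized counts, WT against KO. Those of basophils and mast cells were low but did not overlap, at 2.03 to 3.41 in WT and 5.42 to 6.84 in KO. Their 3 tested genes, *Mcpt8* (log2 fold change 1.41), *Prss34* (1.08) and *Cpa3* (1.20), which encode granule proteases, each had an adjusted p = 0.147 from edgeR and passed no limit, and DESeq2 gave none of them an adjusted p. *Mcpt8* and *Cpa3* were named after their values were seen.

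The sums overlapped between genotypes for megakaryocytes (180.2 to 198 in WT and 168 to 206 in KO, led by *Ppbp*), eosinophils (18.5 to 20.8 and 20.4 to 24.7, mostly *Prg2*), T and NK cells (7.57 to 8.59 and 6.57 to 8.80, mostly *Cd4*), stromal cells (13.9 to 20.1 and 9.98 to 15.9, *Col1a2*), endothelial cells (14.1 to 18.7 and 14.5 to 16.3, *Kdr*) and erythroid cells (0.164 to 0.735 and 0.0521 to 0.460, *Hba-a1*). They did not overlap for B cells (5.14 to 6.32 and 6.35 to 8.05, *Cd79b*) and dendritic cells (6.30 to 9.13 and 9.27 to 11.3, *Flt3*). No gene of these lists passed the limits in edgeR, and none in DESeq2, which gave no adjusted p for low genes such as *Cd79b* and *Zbtb46*, chosen as examples after their values were seen.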
